A study of Mus musculus with 12 samples.

Results

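The genes described here encode the extracellular matrix, the enzymes that cut and cross-link it, and the integrin receptors that bind it. They were chosen by a rule on symbols that used no measured value, though earlier results of these data were known when it was set. It took the collagens, laminins, ADAMTS proteases, matrix metalloproteinases (MMPs), TIMPs, fibulins and fibrillins. It also took the SPARC, spondin, thrombospondin, integrin, lysyl oxidase and link protein families, tenascins, lecticans, and Lum, Ogn, Bgn, Dcn and Mgp. This rule found 69 of the 10245 gene symbols in the table. Among them were 3 fibrillar collagens, 6 basement membrane or network collagens, 8 other collagens, 3 laminin chains, 13 MMPs, 7 ADAMTS proteases, 2 TIMPs, 6 integrin alpha chains, 3 integrin beta chains, 4 lysyl oxidases, 2 thrombospondins, 2 fibulins, 2 link proteins, 1 spondin and 5 small secreted matrix proteins (Dcn, Bgn, Lum, Ogn and Mgp). The remaining 2 were caught by their names only: Itgb1bp3, today called Nmrk2, encodes a nicotinamide riboside kinase, and Loxhd1 is not a lysyl oxidase. Fibrillins, SPARC family members, tenascins and lecticans were not analysed here.

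RNA-Seq was performed on CA1, the hippocampal subfield whose pyramidal neurons send the main output of the hippocampus, with 1 library per mouse. Tip60 cKO mice (n = 6) carried floxed Tip60 alleles and the CaMKCreERT2 transgene, in which a Camk2a promoter drives a tamoxifen-inducible Cre recombinase in excitatory forebrain neurons. Control mice (n = 6) carried floxed Tip60 alleles without Cre. Per the labels all were male C57BL/6N mice that received tamoxifen at an age of 2 months and were dissected 10 days after its last injection. Since Control mice had no Cre, an effect of active Cre and an effect of Tip60 loss cannot be told apart. Glial and vascular cells, which make much of the matrix of the brain, do not express this Cre line. Tip60 (also named Kat5) encodes a histone acetyltransferase. Its own RNA was not analysed here, which leaves the genotype labels unchecked by it.

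Brain matrix differs from that of connective tissue. Fibrillar collagens are largely kept to the meninges and large vessels, collagen IV and laminins build the basement membrane around capillaries, and link proteins tie hyaluronan to proteoglycans in the nets around neurons. MMPs and ADAMTS enzymes cut these proteins and are held in check by TIMPs. Integrins are pairs of one alpha and one beta chain through which cells grip the matrix or, in leukocytes and microglia, each other.

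Levels are given in FPKM, fragments per kilobase of transcript per mapped megaread, as the authors deposited them. Depth, estimated from the smallest values, was 31.6 to 35.9 M reads (M, mega) in Tip60 cKO and 31.2 to 38.0 M reads in Control libraries. The CA1 marker Pou3f1, the only one of its list in the table, lay at 48.1 to 62.5 FPKM in Tip60 cKO and 25.8 to 31.8 FPKM in Control libraries. Cacng5, the only CA2 and CA3 marker there, lay at 2.14 to 3.27 FPKM in Tip60 cKO and 4.39 to 6.26 FPKM in Control. By the test given below, Pou3f1 was called higher and Cacng5 lower. The 3 dentate granule cell markers measured summed to 1.18 to 8.17 FPKM in Tip60 cKO and 1.62 to 12.3 FPKM in Control, and none was called. The 3 endothelial markers measured summed to 47.3 to 53.2 FPKM in Tip60 cKO against 46.0 to 50.3 FPKM in Control, and none of them was called. Tip60 cKO replicate 1 stood apart with 201 FPKM of Ttr, a choroid plexus gene that was below 1 FPKM in every other library. In tissue RNA, fewer cells of a type and less RNA per cell cannot be told apart, and neither can more cells and more RNA per cell.

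Most matrix genes were scarce in CA1. In all, 12 members reached a mean of 2 FPKM or more, 10 lay between 0.5 and 2 FPKM, 26 between 0.1 and 0.5 FPKM, 17 were above 0 but below 0.1 FPKM, and 4 (Mmp1a, Mmp1b, Mmp7 and Mmp27) were listed at 0 in every library. On this length-corrected scale the most abundant was Timp2, an MMP inhibitor, followed by Hapln4, a link protein of the perineuronal net. Timp2 averaged 36.7 ± 2.49 FPKM in Tip60 cKO and 33.9 ± 3.13 FPKM in Control (SD, n = 6 each), and Hapln4 averaged 25.4 ± 2.04 FPKM in Tip60 cKO and 25.7 ± 3.21 FPKM in Control. The next ones were Timp3, Mgp, Col4a2 and Itgb1.

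The 22 members averaging 0.5 FPKM or more entered a limma fit on log2(FPKM + 1), together with all other genes of that level (2423 in all). A gene was called when its Benjamini-Hochberg adjusted p was below 0.05 and its fold of FPKM + 1 exceeded 1.2. In all, 5 members were called higher in Tip60 cKO (Mgp, Dcn, Thbs1, Itgav and Timp3), 1 was called lower (Col4a2) and 16 were neither. Of all tested genes, 20.1% were called higher and 6.52% lower, so the share of members called higher, 22.7%, lay near the background. The median log2 change was 0.12 over the 22 members and 0.10 over all tested genes. Positive changes were found in 16 of the 22 members, beside 69.3% of all tested genes. With libraries rescaled by median ratios, which brought the median of all genes to 0.01, 3 members were called higher (Mgp, Dcn and Thbs1) and 2 lower (Col4a2 and Col6a1), beside 11.9% of all genes higher and 11.5% lower.

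**Figure D1:**
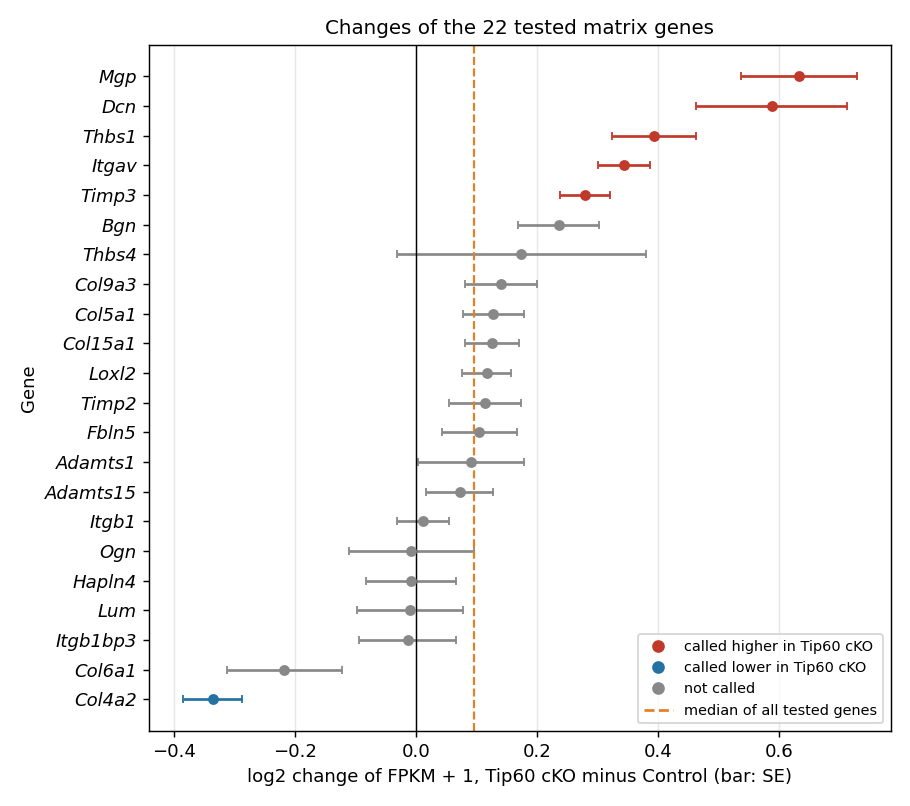
Log2 change of FPKM + 1, Tip60 cKO minus Control, for the 22 matrix genes averaging 0.5 FPKM or more, with bars of 1 standard error (6 libraries per genotype). Mgp (0.63) and Dcn (0.59) lie farthest to the right, Col4a2 (-0.34) farthest to the left, and the dashed line marks the median of all tested genes (0.10).

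Of the small secreted matrix proteins, 2 of 5 were called, and both were higher. Mgp on chromosome 6, matrix Gla protein, known for keeping calcium salts out of vessel walls and cartilage, ranged from 17.95 to 22.8 FPKM with a median of 21.1 in Tip60 cKO and from 10.0 to 16.0 FPKM with a median of 12.6 in Control. Every Tip60 cKO library was above every Control library. The mean was 1.58-fold higher, with a log2 change of 0.63 (SE 0.10, limma Benjamini-Hochberg adjusted p = 8.86e-05).

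Dcn on chromosome 10 encodes decorin, a leucine-rich proteoglycan that coats collagen fibrils and binds TGF-beta. It ranged from 4.12 to 7.04 FPKM (median 5.39) in Tip60 cKO and from 2.36 to 4.21 FPKM (median 3.54) in Control, so that only the lowest Tip60 cKO library fell under the highest Control library. Its mean was 1.65-fold higher, with log2 change 0.59 (SE 0.13, limma adjusted p = 0.00138).

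Biglycan (Bgn, chromosome X), the closest relative of decorin, averaged 7.79 ± 0.689 FPKM in Tip60 cKO and 6.48 ± 0.707 FPKM in Control. Its log2 change of 0.24 had an adjusted p of 0.00783 in limma but stayed within 1.2-fold. It was called with a pseudocount of 0.1 (0.27), and also without Tip60 cKO replicate 3 (0.28) or Control replicate 2 (0.27). Lumican and osteoglycin, the other leucine-rich members, were not called. Lum averaged 0.853 ± 0.261 FPKM in Tip60 cKO and 0.855 ± 0.142 FPKM in Control, and Ogn 0.506 ± 0.253 FPKM in Tip60 cKO and 0.505 ± 0.162 FPKM in Control. The family thus held members with a rise beside members whose group means were nearly equal.

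Decorin, lumican and fibrillar collagen are also made by meningeal fibroblasts, so markers of those cells are given here. Of 12 meningeal and fibroblast markers, 7 were in the table and 4 were tested. None of the 4 was called, but all had positive log2 changes, with a median of 0.20 against 0.10 over all tested genes. Igf2 (log2 change 0.23, limma adjusted p = 0.034) and Aldh1a2 (log2 change 0.20, limma adjusted p = 0.0301) were past the adjusted p within 1.2-fold. The sum of the 7 ranged from 16.0 to 23.4 FPKM in Tip60 cKO and from 15.5 to 20.5 FPKM in Control. Of the markers below the filter, Dpep1 averaged 0.139 FPKM in Tip60 cKO and 0.0205 FPKM in Control. The others differed less: Slc22a6 averaged 0.514 FPKM in Tip60 cKO and 0.475 FPKM in Control, and Crabp2 0.305 and 0.286 FPKM. Mural cells of vessels can also express Mgp. Of 10 mural markers, 5 were in the table, with Tagln at 0 throughout, and 4 were tested. Acta2, smooth muscle actin, was called higher (7.02 ± 1.15 FPKM in Tip60 cKO and 5.65 ± 0.871 FPKM in Control, log2 change 0.27, limma adjusted p = 0.0351), and Myl9, a myosin light chain, was past the adjusted p within 1.2-fold (log2 change 0.19, limma adjusted p = 0.0201). The mural sum ranged from 51.2 to 65.6 FPKM in Tip60 cKO and from 46.4 to 53.5 FPKM in Control. Its highest value was that of Tip60 cKO replicate 3, with 40.7 FPKM of vitronectin (Vtn), the largest term of the sum. Vtn and Pdgfrb, the other mural markers tested, were not called (limma adjusted p = 0.0674 and 0.357). The part of fibroblasts and mural cells in the Dcn and Mgp values was not tested.

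**Figure D2:**
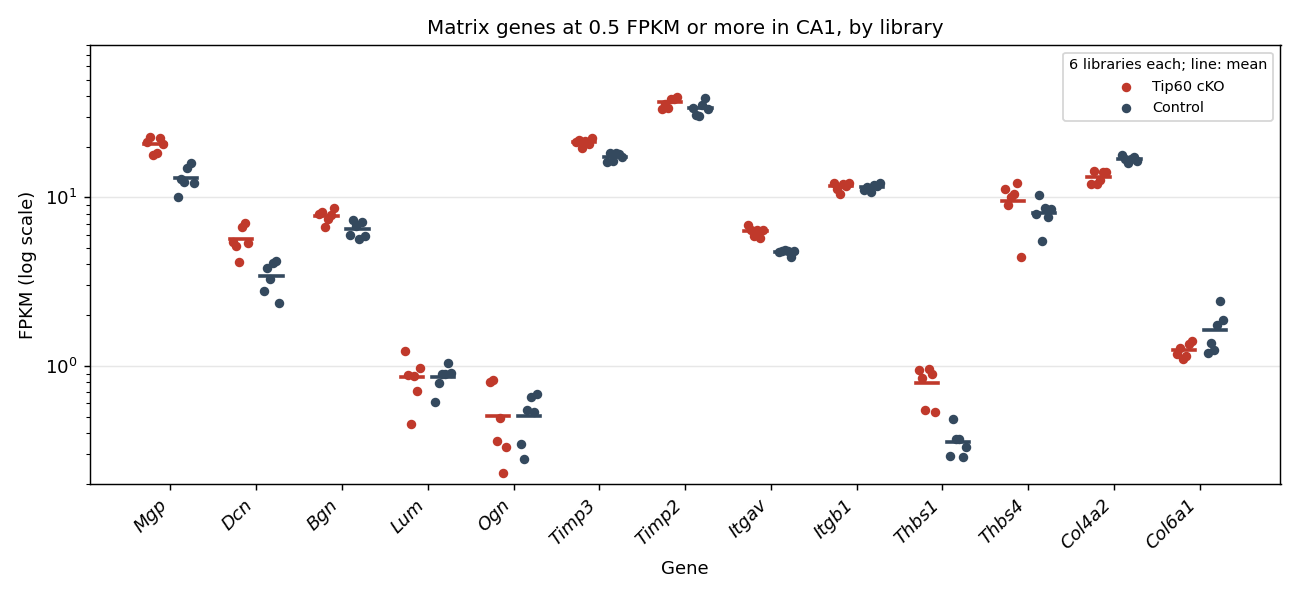
FPKM on a log axis in each of the 6 Tip60 cKO (red, left) and 6 Control (dark blue, right) libraries for 13 of the 22 tested matrix genes, with a line at each mean. For Mgp, Timp3, Itgav and Thbs1 all Tip60 cKO points lie above the Control points, for Col4a2 all lie below, and for Lum, Ogn and Itgb1 the groups overlap.

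Both TIMPs were abundant, and 1 of them was called. Timp3 on chromosome 10, the TIMP that binds to the matrix itself and also blocks ADAMTS enzymes, ranged from 19.6 to 22.6 FPKM (median 21.6) in Tip60 cKO and from 16.2 to 18.2 FPKM (median 17.7) in Control. The groups did not overlap. The mean was 1.23-fold higher (log2 change 0.28, SE 0.04, limma adjusted p = 4.62e-05). This change was close to the 1.2-fold limit and was not called after median-ratio scaling (0.16), after upper-quartile scaling (0.21) or without Control replicate 1 (0.26). Timp2 on chromosome 11 had a log2 change of 0.11 (limma adjusted p = 0.118), which became -0.0035 after median-ratio scaling.

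Among integrin chains above the filter, the alpha chain was called and the beta chain was not. Itgav on chromosome 2, the alpha V chain that binds RGD motifs in vitronectin, fibronectin and latent TGF-beta, ranged from 5.74 to 6.88 FPKM (median 6.39) in Tip60 cKO and from 4.42 to 4.85 FPKM (median 4.80) in Control. The groups did not overlap, and the spread in Control was narrow. The mean was 1.33-fold higher (log2 change 0.34, SE 0.04, limma adjusted p = 1.02e-05), and after median-ratio scaling the change of 0.24 was within 1.2-fold. Itgb1, the beta 1 chain shared by most matrix-binding integrins, averaged 11.6 ± 0.680 FPKM in Tip60 cKO and 11.5 ± 0.540 FPKM in Control (log2 change 0.01, limma adjusted p = 0.847). After median-ratio scaling the change of Itgb1 was -0.10, past the adjusted p but within 1.2-fold (limma adjusted p = 0.0111). Itgb1bp3 (Nmrk2) averaged 0.529 ± 0.209 FPKM in Tip60 cKO and 0.535 ± 0.102 FPKM in Control.

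Thrombospondins are secreted proteins that astrocytes use to promote synapse formation. Thbs1 on chromosome 2, which also activates TGF-beta, ranged from 0.534 to 0.952 FPKM (median 0.872) in Tip60 cKO and from 0.289 to 0.486 FPKM (median 0.347) in Control. The groups did not overlap. The mean was 2.21-fold higher, while the log2 change on the FPKM + 1 scale was 0.39 (SE 0.07, limma adjusted p = 0.000223), since a pseudocount of 1 compresses changes of scarce genes. With a pseudocount of 0.1 the log2 change was 0.94. Its values rest on an estimated mean of 115 reads per library. The Control mean of 0.355 FPKM was below the 0.5 FPKM filter, which Thbs1 passed only through its Tip60 cKO values.

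Thbs4 on chromosome 13, a thrombospondin found in neurons and at tendon junctions, was more abundant and was not called. It averaged 9.55 ± 2.73 FPKM in Tip60 cKO and 8.13 ± 1.57 FPKM in Control (log2 change 0.17, limma adjusted p = 0.501). Tip60 cKO replicate 6 had the lowest value, 4.42 FPKM. Without that library the log2 change was 0.36 (limma adjusted p = 0.0244) and Thbs4 was called higher.

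Col4a2 on chromosome 8 was the only tested member called lower. It encodes the alpha 2 chain of collagen IV, which pairs with the alpha 1 chain in the basement membrane of brain capillaries. It ranged from 11.9 to 14.3 FPKM (median 13.5) in Tip60 cKO and from 16.1 to 17.8 FPKM (median 16.9) in Control. All 6 Tip60 cKO libraries were below all 6 Control libraries, as were those of 8.34% of all tested genes. The ratio of means was 0.781, and the log2 change was -0.34 (SE 0.05, limma adjusted p = 3.92e-05). Of 11 endothelial markers, only 3 were in the table, and none of these was called. Among them Cldn5, a tight junction protein, averaged 16.4 ± 1.10 FPKM in Tip60 cKO and 15.7 ± 1.15 FPKM in Control. The part of vascular cells in the Col4a2 values was not tested. The mural markers, given with Mgp, included Acta2 as called higher. Other collagen IV chains, Col4a3 and Col4a6, were below 0.5 FPKM and were not called.

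Col6a1 on chromosome 10, the alpha 1 chain of the beaded filament collagen VI, averaged 1.24 ± 0.121 FPKM in Tip60 cKO and 1.64 ± 0.474 FPKM in Control (log2 change -0.22, limma adjusted p = 0.0644). Control values were spread from 1.19 to 2.43 FPKM and overlapped with the Tip60 cKO values of 1.105 to 1.40 FPKM. It was called lower after median-ratio scaling (-0.29, limma adjusted p = 0.0159) and without Control replicate 1 (-0.27, limma adjusted p = 0.0249).

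Further tested members differed by less than 1.2-fold on the tested scale. Col5a1, a fibrillar collagen, averaged 1.33 ± 0.139 FPKM in Tip60 cKO and 1.13 ± 0.105 FPKM in Control, with a limma adjusted p of 0.0433. Col15a1, a basement membrane zone collagen, averaged 0.738 ± 0.0782 FPKM in Tip60 cKO and 0.594 ± 0.0677 FPKM in Control (limma adjusted p = 0.0291), and Loxl2, a lysyl oxidase that cross-links collagen IV, 0.937 ± 0.0608 FPKM in Tip60 cKO and 0.787 ± 0.0626 FPKM in Control (limma adjusted p = 0.0253). These 3 and Bgn brought the members past the adjusted p alone to 9 higher and 1 lower (Col4a2), beside 40.3% of all tested genes higher and 14.4% lower. Col9a3, Adamts1, Adamts15 and Fbln5 did not reach that threshold. Of these, Adamts1, a protease of aggrecan and versican, averaged 3.43 ± 0.640 FPKM in Tip60 cKO and 3.13 ± 0.297 FPKM in Control (log2 change 0.09, limma adjusted p = 0.404). Its change was -0.003 after median-ratio scaling.

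The scarcer members were examined with a pseudocount of 0.1 and a mean of at least 0.1 FPKM (3648 genes, 48 members). In this fit 17 members were called higher and 1 lower, beside 26.8% and 5.95% of all genes. Of the 26 members between 0.1 and 0.5 FPKM, 10 were called higher and none lower, which is 38.5% against 25.8% higher and 2.12% lower among all genes of that level. Their median log2 change was 0.30, and that of all genes of that level was 0.21. The filter used the mean over all 12 libraries, so a gene could pass through 1 genotype alone. Adamts5, Col28a1, Col4a3, Itgad and Itgax had Control means below 0.1 FPKM and passed only through their Tip60 cKO values. Genes of the background could pass likewise, and the counts are no separate support for a rise. The 10 called higher were Adamts5, Col28a1, Col6a5, Col9a1, Fbln7, Itgad, Itgal, Itgax, Lamb3 and Loxl1.

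Of them, 4 had means more than 3-fold higher with limma log2 changes above 1. Lamb3 on chromosome 1, the laminin beta 3 chain of laminin-332, an epithelial adhesion protein, ranged from 0.335 to 1.58 FPKM (median 0.462) in Tip60 cKO and from 0.129 to 0.266 FPKM (median 0.160) in Control. The groups did not overlap, and Tip60 cKO replicate 6 stood far above the others. The mean was 3.80-fold higher (log2 change 1.32, SE 0.27, limma adjusted p = 0.0011). Lama1, a laminin alpha chain, was not called and averaged 0.383 ± 0.0665 FPKM in Tip60 cKO and 0.396 ± 0.104 FPKM in Control. The difference between Lamb3 and Lama1 was not tested.

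Col6a5 on chromosome 9, a collagen VI chain with a narrow tissue range, ranged from 0.311 to 0.606 FPKM (median 0.354) in Tip60 cKO and from 0.0660 to 0.173 FPKM (median 0.0856) in Control. The groups were fully apart, with a mean 3.99-fold higher (log2 change 1.33, SE 0.16, limma adjusted p = 1.33e-05). Col6a1, another chain of the same collagen, had the opposite sign in these libraries, as given above.

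Adamts5 on chromosome 16, the main aggrecan-cutting protease of cartilage, ranged from 0.231 to 0.387 FPKM (median 0.312) in Tip60 cKO and from 0.0724 to 0.111 FPKM (median 0.0943) in Control. Both groups were tight and did not overlap. The mean was 3.37-fold higher (log2 change 1.09, SE 0.12, limma adjusted p = 3.99e-06). The other ADAMTS proteases of this level, Adamts14 and Adamts18, were not called (limma adjusted p = 0.0838 and 0.0699).

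The 3 leukocyte integrin alpha chains in this range were all called higher. These chains pair with the beta 2 chain on myeloid cells and lymphocytes, and in the brain Itgax (CD11c) is known from activated microglia. Itgax on chromosome 7 ranged from 0.178 to 0.420 FPKM (median 0.312) in Tip60 cKO and from 0.0458 to 0.162 FPKM (median 0.0935) in Control. Its groups did not overlap, and the mean was 3.14-fold higher (log2 change 1.04, SE 0.19, limma adjusted p = 0.00038).

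Itgal (CD11a), also on chromosome 7, ranged from 0.123 to 0.360 FPKM (median 0.191) in Tip60 cKO and from 0.0840 to 0.140 FPKM (median 0.111) in Control (log2 change 0.51, SE 0.17, limma adjusted p = 0.0262). Itgad (CD11d), on the same chromosome, ranged from 0.0801 to 0.418 FPKM (median 0.141) in Tip60 cKO and from 0 to 0.1003 FPKM (median 0.0595) in Control (log2 change 0.77, SE 0.24, limma adjusted p = 0.0181). In both genes the groups overlapped, and Itgad rests on an estimated mean of 16.0 reads per library. Among other integrin chains, Itgav was called higher, as given above. Itgb3 (0.452 ± 0.0338 FPKM in Tip60 cKO and 0.404 ± 0.0572 FPKM in Control) and Itgb1 were not called.

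Microglial markers went in both directions. Of 12 microglial genes, 6 were tested: C1qa, C1qc and Tyrobp were called higher, P2ry13, a purine receptor of resting microglia, was called lower, and 2 were neither. Of those 2, Tmem119 averaged 8.14 ± 0.701 FPKM in Tip60 cKO and 9.50 ± 0.516 FPKM in Control (log2 change -0.20, limma adjusted p = 0.00411), within 1.2-fold. The sum of the 6 ranged from 118 to 154 FPKM in Tip60 cKO and from 107 to 125 FPKM in Control. C1qa, a complement subunit, averaged 43.4 ± 4.18 FPKM in Tip60 cKO and 32.6 ± 2.39 FPKM in Control, and Cx3cr1, the fractalkine receptor of microglia, averaged 12.8 ± 0.984 FPKM in Tip60 cKO and 13.1 ± 0.866 FPKM in Control. The part of microglial number or state in the integrin values was not tested.

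**Figure D3:**
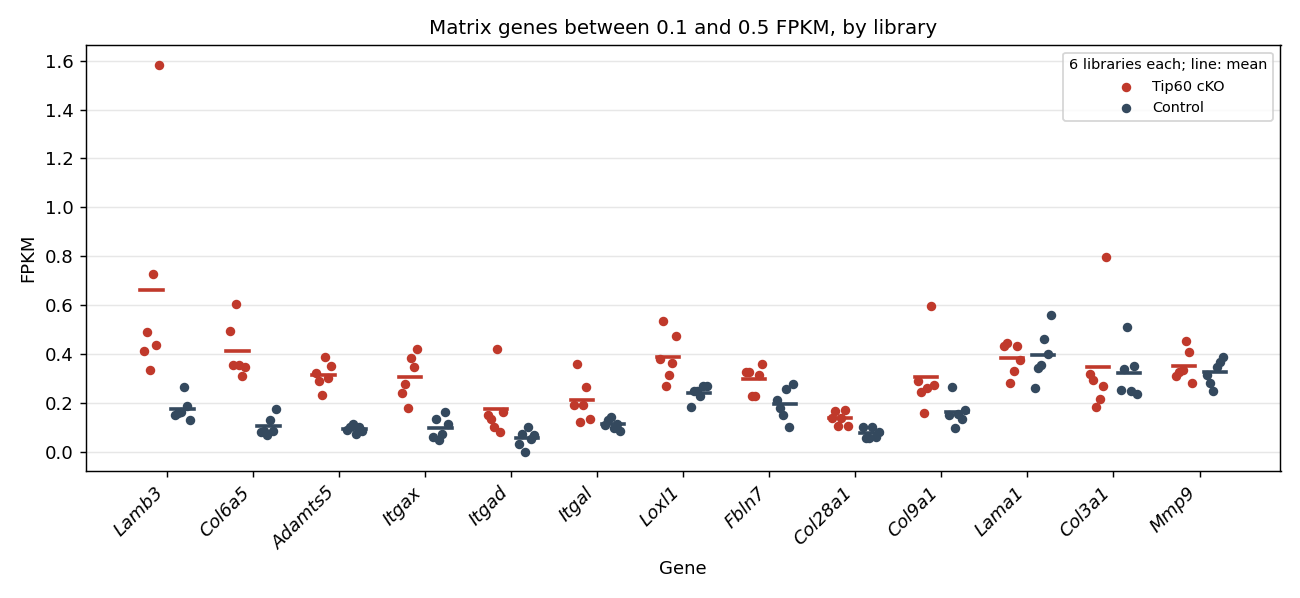
FPKM in each of the 6 Tip60 cKO (red, left) and 6 Control (dark blue, right) libraries for 13 matrix genes with a mean between 0.1 and 0.5 FPKM, with a line at each mean. The groups are apart for Lamb3, Col6a5, Adamts5, Itgax and Col28a1, and overlap for the other genes. One Lamb3 point, Tip60 cKO replicate 6, reaches 1.58 FPKM.

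The remaining 4 called members of this level had log2 changes of 0.44 to 0.59. Loxl1, a lysyl oxidase that cross-links elastin, averaged 0.389 ± 0.0992 FPKM in Tip60 cKO and 0.240 ± 0.0317 FPKM in Control (log2 change 0.50, SE 0.14, limma adjusted p = 0.00813), and its groups overlapped by the lowest Tip60 cKO value of 0.268 FPKM. Col28a1, a collagen known from Schwann cells, averaged 0.137 ± 0.0282 FPKM in Tip60 cKO and 0.0751 ± 0.0215 FPKM in Control, with separate groups (log2 change 0.44, SE 0.14, limma adjusted p = 0.016). Fbln7, a fibulin, averaged 0.297 ± 0.0561 FPKM in Tip60 cKO and 0.195 ± 0.0662 FPKM in Control (log2 change 0.45, SE 0.16, limma adjusted p = 0.0364). Col9a1, a chain of the fibril-associated collagen IX, averaged 0.304 ± 0.1505 FPKM in Tip60 cKO and 0.160 ± 0.0565 FPKM in Control (log2 change 0.59, SE 0.21, limma adjusted p = 0.0319).

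Calls of Col9a1, Fbln7 and Itgal were lost under both other scalings and without some libraries. For Col9a1 these were Tip60 cKO replicates 1 and 5 and Control replicates 1, 3, 4 and 5, where the limma adjusted p ran from 0.0503 to 0.0724. For Fbln7 they were Tip60 cKO replicates 1, 2, 5 and 6 and Control replicates 2, 3 and 5, and for Itgal Tip60 cKO replicates 2 and 5 and Control replicates 4 and 6. Adamts5, Col6a5, Lamb3, Itgax, Itgad, Loxl1 and Col28a1 kept their calls in the 15 alternatives that left the pseudocount of 0.1 and the filter unchanged. The number of calls depended on that pseudocount. With a pseudocount of 1 and the same filter, 8 members of all levels were called higher, against 17 with 0.1.

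Members of this level that were not called included several of wide interest in brain injury. Mmp9, gelatinase B, which cuts perineuronal nets, averaged 0.351 ± 0.0653 FPKM in Tip60 cKO and 0.324 ± 0.0535 FPKM in Control (log2 change 0.09, limma adjusted p = 0.604). Col3a1, a fibrillar collagen of fibroblasts, averaged 0.345 ± 0.226 FPKM in Tip60 cKO and 0.323 ± 0.104 FPKM in Control, with 0.795 FPKM in Tip60 cKO replicate 6. Mmp11, stromelysin 3, averaged 0.488 ± 0.0874 FPKM in Tip60 cKO and 0.466 ± 0.122 FPKM in Control. The collagens Col4a3, Col4a6, Col8a1, Col8a2 and Col12a1 and the protease Mmp21 were likewise not called. Hapln3, a link protein, averaged 0.371 ± 0.0712 FPKM in Tip60 cKO and 0.398 ± 0.0980 FPKM in Control. Col2a1, the cartilage collagen, averaged 0.229 ± 0.0291 FPKM in Tip60 cKO and 0.279 ± 0.0282 FPKM in Control, and was called lower only after median-ratio (limma adjusted p = 0.0168) or upper-quartile scaling (limma adjusted p = 0.0269).

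Whether the libraries of the genotypes overlapped was also counted by level, set by the mean over all 12 libraries. Members that reached 0.1 or 0.5 FPKM only through Tip60 cKO are included. These are the ones named above, and Adamts15 and Fbln5, whose Control means were 0.493 and 0.479 FPKM. At 0.5 FPKM or more, 4 of 22 members lay wholly higher in Tip60 cKO, beside 25.1% of all genes. Between 0.1 and 0.5 FPKM it was 5 of 26, beside 13.4%, and none lay wholly lower, beside 0.735%. Below 0.1 FPKM it was 2 of 17, Mmp3 and Col17a1, beside 3.4%. Col17a1, a transmembrane collagen of hemidesmosomes and a partner of laminin-332 in skin, ranged from 0.0215 to 0.0435 FPKM in Tip60 cKO and from 0 to 0.0186 FPKM in Control, an estimated mean of 3.93 reads per library.

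The other members of the lowest level had overlapping groups. Loxhd1 averaged 0.0591 FPKM in Tip60 cKO and 0.0232 FPKM in Control, and Itgb6, the epithelial beta 6 partner of alpha V, 0.0369 FPKM in Tip60 cKO and 0.0129 FPKM in Control. Lox, the founding lysyl oxidase, averaged 0.0821 FPKM in Tip60 cKO and 0.0514 FPKM in Control, and its relative Loxl4 0.0383 FPKM in Tip60 cKO and 0.0278 FPKM in Control. Itgae, a further leukocyte alpha chain, averaged 0.0626 FPKM in Tip60 cKO and 0.0699 FPKM in Control, in contrast in sign to Itgax, Itgal and Itgad. The collagen receptor chain Itga2, the proteases Adamts12 and Adamts19, the cartilage collagen Col10a1 and the spondin Spon2 had overlapping ranges, with a highest value of 0.113 FPKM, for Itga2 in Tip60 cKO. At these levels a library holds an estimated 12.5 reads of Itga2 and 0.905 reads of Spon2 on average, which is few for a comparison. With no filter on low values, 4 of these 17 scarcest members were past an adjusted p of 0.05 in limma (Col17a1, Mmp3, Loxhd1 and Itgb6, with 0.000849, 0.0082, 0.00947 and 0.0462), all higher and within 1.2-fold on the FPKM + 1 scale. Of all genes of this level, 7.6% were past that threshold higher and 0.359% lower.

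Mmp3 belongs to a cluster of 10 neighbouring MMP genes of chromosome 9, all of which were members. Mmp3 encodes stromelysin 1, a secreted protease that cuts many matrix proteins and activates other MMPs. It was read at 0.0634, 0.0281, 0.0527, 0.0334, 0.0309 and 0.116 FPKM in Tip60 cKO libraries 1 to 6, against 0.0149 FPKM in Control library 4 and 0 in the other 5 Control libraries. These values correspond to an estimated 19.8 reads summed over the Tip60 cKO libraries and 1.02 reads over the Control libraries. The gene was under both level filters. In the alternative fit with no filter on low values its log2 change of FPKM + 1 was 0.07 (limma adjusted p = 0.0082), within 1.2-fold and so not called.

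Mmp10, stromelysin 2, a close relative of Mmp3, was above 0 in 5 of 6 Tip60 cKO libraries, up to 0.0529 FPKM, and was listed at 0 in all 6 Control libraries. It rested on an estimated 5.66 reads in Tip60 cKO in total, some of them fractions of a read, as reads of near-identical genes may be split. Mmp12, Mmp13 and Mmp8 were read in both genotypes. Mmp12, macrophage elastase, had an estimated 9.46 reads in Tip60 cKO and 4.74 in Control, Mmp13, a collagenase, 2.93 in Tip60 cKO and 5.87 in Control, and Mmp8, the neutrophil collagenase, 0.967 in Tip60 cKO and 0.976 in Control. Mmp20, an enamel protease, had 0.96 in Tip60 cKO and 0 in Control, and Mmp1a, which lies between Mmp3 and Mmp10, was at 0 throughout, as were Mmp1b, Mmp27 and Mmp7.

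**Figure D4:**
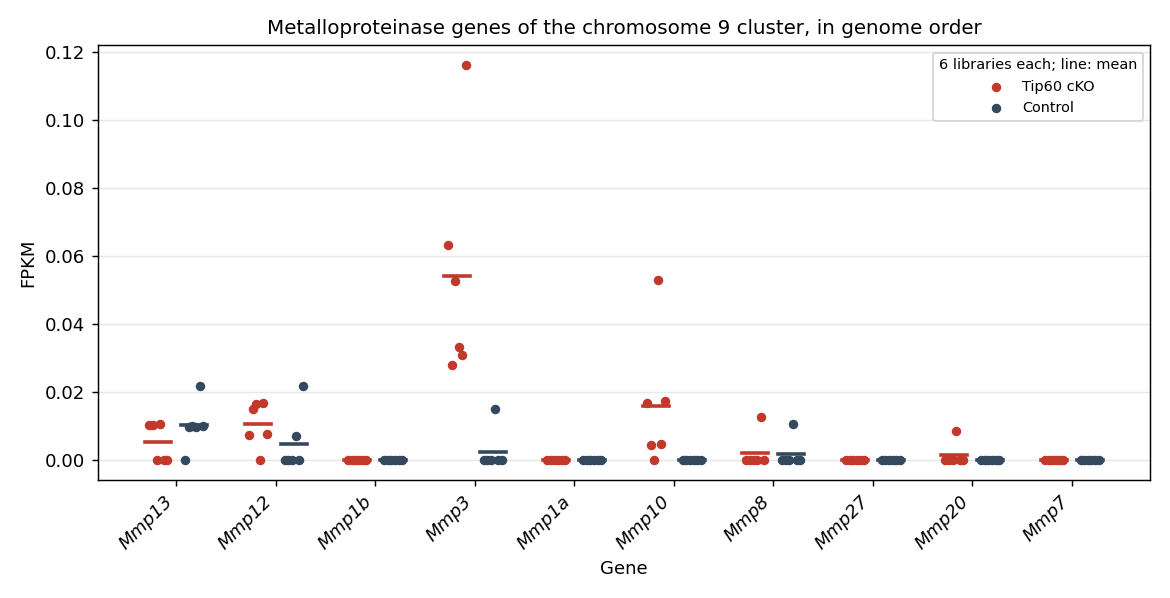
FPKM in each of the 6 Tip60 cKO (red, left) and 6 Control (dark blue, right) libraries for the 10 MMP genes of the chromosome 9 cluster, in genome order, with a line at each mean. Mmp3 has all 6 Tip60 cKO points above 0.02 FPKM and 1 Control point above 0, and Mmp10 has points above 0 in Tip60 cKO only.

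The sequences before these genes are shown because the cluster is a textbook case of shared promoter design. Many MMP promoters hold an AP-1 site, bound by Fos and Jun proteins, a short way before a TATA box. The 250 bases before the RefSeq start (GRCm38.p6, plus strand) are given for Mmp3, whose groups did not overlap, and for Mmp10. Mmp10 was above 0 in 5 Tip60 cKO libraries and in no Control library, with only 0.268 and 0.266 estimated reads in Tip60 cKO replicates 2 and 5. TGAGTCA on either strand (an AP-1 motif, written TGACTCA on the other strand) and TATAAA, also searched on either strand, are in capitals. The 250 bases of Mmp3 lie at chr9:7445572-7445821 and those of Mmp10 at chr9:7502092-7502341.
Mmp3: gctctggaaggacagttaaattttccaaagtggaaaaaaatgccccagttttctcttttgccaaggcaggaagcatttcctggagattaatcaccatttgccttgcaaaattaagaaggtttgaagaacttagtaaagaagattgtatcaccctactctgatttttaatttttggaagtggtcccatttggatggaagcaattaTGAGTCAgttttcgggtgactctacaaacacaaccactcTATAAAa
Mmp10: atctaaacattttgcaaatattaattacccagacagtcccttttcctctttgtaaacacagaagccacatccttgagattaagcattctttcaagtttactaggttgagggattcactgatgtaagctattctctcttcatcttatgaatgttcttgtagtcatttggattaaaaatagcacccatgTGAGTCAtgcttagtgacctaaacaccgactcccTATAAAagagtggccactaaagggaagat
In Mmp3 the first base of the AP-1 motif lies at -46 from the annotated start, and in Mmp10 at -63. For comparison, the last 100 bases before the start are given for Mmp12 and Mmp13, which were read in both genotypes, and for Mmp1a and Mmp7, which were read in neither, with the same capitals, at chr9:7464041-7464140 (Mmp1a), chr9:7691990-7692089 (Mmp7), chr9:7272414-7272513 (Mmp13) and chr9:7347274-7347373 (the downstream one of a pair of Mmp12 starts).
Mmp1a: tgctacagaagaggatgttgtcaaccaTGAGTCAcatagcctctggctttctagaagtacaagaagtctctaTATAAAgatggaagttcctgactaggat
Mmp7: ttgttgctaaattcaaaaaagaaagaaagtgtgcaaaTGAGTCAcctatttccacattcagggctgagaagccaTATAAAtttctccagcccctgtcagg
Mmp13: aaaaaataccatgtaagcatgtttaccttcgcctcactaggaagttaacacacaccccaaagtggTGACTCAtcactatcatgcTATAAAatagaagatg
Mmp12: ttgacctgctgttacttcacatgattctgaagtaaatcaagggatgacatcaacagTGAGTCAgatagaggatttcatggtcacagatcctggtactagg

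The table held 12 promoters for the 10 genes, since Mmp12 and Mmp7 had a pair of starts each. The AP-1 motif stood in 7 of these 12 promoters (58.3%), and in 4.46% of 32851 RefSeq promoters over the same 250 bases. The genes with it were Mmp3 and Mmp10, but also Mmp12 and Mmp13, and Mmp1a, Mmp1b and Mmp7, which were listed at 0 in every library. TATAAA likewise stood in 7 of the 12, beside 12.4% of all promoters. Of the 45 members with a promoter in the table, 9 had the AP-1 motif in at least 1 promoter, and outside the cluster these were Itgax and Col6a1. Among the 10 members called higher in either fit that had a promoter there, only Itgax had it. These matches describe letters and say nothing of binding.

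Other matrix and matrix-assembly genes, a list of 90 that the symbol rule leaves out, had 33 genes in the table and 17 tested. Of these, 1 was called higher, none lower, and 16 were neither, beside the 20.1% of all tested genes called higher and 6.52% called lower. Their median log2 change was 0.11, against 0.10 over all tested genes. The gene called was Sdc4, syndecan 4, a heparan sulfate proteoglycan of cell adhesions, which averaged 33.0 ± 1.61 FPKM in Tip60 cKO and 21.98 ± 1.48 FPKM in Control, 1.503-fold higher (log2 change 0.57, SE 0.05, limma adjusted p = 1.04e-07). By adjusted p alone, 5 of the 17 were higher, beside 40.3% of all tested genes. The lower pseudocount and filter admitted more of the list than these 17 genes. With them, 6 genes of the list were called higher, beside 26.8% of all genes of that fit. Vitronectin (Vtn), a ligand of the alpha V integrins, averaged 31.1 ± 4.77 FPKM in Tip60 cKO and 27.4 ± 0.935 FPKM in Control and was not called (limma adjusted p = 0.0674).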

How the data were processed

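The authors deposited FPKM values for 12 libraries, 1 per mouse, made from Illumina reads. Tools listed in the submitters' processing notes are TopHat2 2.0.8, CASAVA 1.8.2, bedtools 2.16.2 and FastQC 0.10.0, with the mm9 build. For the program and annotation behind the FPKM, and for strandedness, the sources used here say nothing, and overlapping genes cannot be told apart. The study's own test used counts on another build and is a separate processing.

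The table held 10383 rows. After removal of 100 repeat rows, rows of a symbol were summed (no member had several). Left out were 2414 genes at 0 throughout, 528 small RNA genes and 35 genes with isolated 0 values beside a median of at least 1 FPKM, none of them members. limma 3.58.1 in R 4.3.3 (mean-dependent prior, robust) was fitted to log2(FPKM + 1) for the 2423 genes averaging 0.5 FPKM or more, 6 against 6 libraries, no covariates, with Benjamini-Hochberg adjustment. A second fit used a pseudocount of 0.1 and a mean of at least 0.1 FPKM. Fold changes are on these scales and understate changes of scarce genes. A planned count test was not used, as the values are FPKM. The scripts were tested on simulated data.

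Estimated reads are FPKM times the longest transcript times the estimated depth, which was read from the level at which single reads pile up, and cover counting error only. FPKM depend on a library total only part of which is in the table. Groups came from the labels, which give no batch. Named were members called in either fit or under an alternative, the most abundant of each family, and, chosen after their values were seen, further members shown for contrast. The members and lists were chosen with earlier results of these data known. All 69 members matched RefSeq gene names, and promoters of 45 were found in RefSeq (GRCm38.p6). Alternatives varied scaling, pseudocount, filter, variance model, fold threshold and libraries. One member's values are not reported here.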

Additional observations from a re-analysis of the deposited data

Results flagged for a closer look

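In 11 of the 96 groups of 6 libraries checked, 1 library stood apart from the other 5 by Dixon's criterion, which chance alone meets in about 1 of 20 groups. Tip60 cKO replicate 6 stood high for Lamb3 (1.58 FPKM, the others at 0.335 to 0.725), for Col3a1 (0.795 FPKM, the others at 0.183 to 0.316) and for Adamts14 (0.505 FPKM, the others at 0.197 to 0.253). Tip60 cKO replicate 1, the library with the high Ttr value, stood high for Col8a1 (0.392 FPKM, the others at 0.0922 to 0.143). Tip60 cKO replicate 5 stood high for Col9a1 (0.597 FPKM, the others at 0.160 to 0.288), and Tip60 cKO replicate 4 for Itgad (0.418 FPKM, the others at 0.0801 to 0.161). Tip60 cKO replicate 3 stood low for Fbln5 (0.329 FPKM, the others at 0.615 to 0.692). In Control, replicate 5 stood high for Col4a6 (0.305 FPKM, the others at 0.207 to 0.240) and low for Itgav (4.42 FPKM, the others at 4.74 to 4.85), replicate 2 stood high for Col9a3 (5.77 FPKM, the others at 4.49 to 4.93), and replicate 1 for Itgb1bp3 (0.741 FPKM, the others at 0.470 to 0.520).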

How the results depend on the processing

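The calls of Mgp, Dcn, Thbs1 and Col4a2 were kept in all 20 alternatives run on them. The count of members called higher, 5, was 3 after median-ratio scaling, 8 with a mean of at least 0.1 FPKM or no filter, 17 with that filter and a pseudocount of 0.1, and 9 by adjusted p alone, and 4 to 6 when 1 library was left out. The count called lower, 1, was 2 after median-ratio scaling and 1 to 2 when 1 library was left out. Among members between 0.1 and 0.5 FPKM the 10 called higher became 7 to 10 without 1 library, and the 0 called lower became 1 after median-ratio or upper-quartile scaling. For the other matrix genes, the 1 called higher became 3 with a pseudocount of 0.1, 2 with a mean of at least 0.1 FPKM or no filter, 6 with both, 5 by adjusted p alone, and 1 to 2 without 1 library. Log2 changes near 0 turned sign: Adamts1 was -0.00297 and Timp2 -0.0035 after median-ratio scaling. Itgb1 was -0.10 after median-ratio scaling (limma adjusted p = 0.0111, within 1.2-fold) and -0.0585 after upper-quartile scaling. Without 1 library, Hapln4 ran from -0.0557 to 0.0323, Itgb1 from -0.0077 to 0.0383, Itgb1bp3 from -0.0711 to 0.0394, Lum from -0.0661 to 0.0582 and Ogn from -0.0676 to 0.0464. Among uncalled members, Adamts14 was called higher without Control replicate 5 (limma adjusted p = 0.0348), Adamts18 without the mean-dependent prior (0.0157), and Col15a1 with a pseudocount of 0.1. Alternatives within the fit of the scarce members were chosen after the data were seen, and the cause of these changes was not tested. A count test was not run, since the values are FPKM. No paired analysis was possible because the labels give no pairing and replicate numbers follow accession order only. At this depth a gene at 0.1 FPKM rests on few reads, so differences among such genes may go undetected.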
